A study of Rattus norvegicus with 24 samples.

Results

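Rpl3 and Rpl3l, the ubiquitous and the muscle form of one large-subunit ribosomal protein, were followed in the rat tibialis anterior over 30 days of daily resistance training. The members were all transcripts whose gene symbol was Rpl3 or Rpl3l, which gave 7 of the 20027 transcripts and 2 of the 15273 gene symbols in the transcript table. The muscles came from adult male Wistar rats with no genetic change, all of which carried an implanted pulse generator. SpillOver training was given once a day to the left hind limb, in which the dorsiflexors contract against partly stimulated plantarflexors, and the trained left tibialis anterior was collected 1 h after the last bout at 2, 10, 20 or 30 days. The unstimulated right muscle of the same rat was the contralateral control. It shared the anaesthesia, the abdominal implant and the age of its partner but was given no training of its own. The electrodes and the incision to place them were in the left limb, so limb surgery and training cannot be told apart here. There were 3 rats per time point and 24 muscles, each sequenced once as poly-A RNA, and the 12 contralateral muscles were pooled as the control group.

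Rpl3 (uL3) lies close to the peptidyl transferase centre of the large ribosomal subunit, where peptide bonds are formed, and it is one of the first proteins to join the subunit as it is assembled. Rpl3l is a paralogue that is expressed almost exclusively in skeletal muscle and heart, where it can take the place of Rpl3, so that mature muscle holds ribosomes with either protein. Because a ribosome holds 1 copy of this protein, the ratio of the pair of RNAs describes which form prevailed at the level of RNA. Protein was not measured here.

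In the Rnor_6.0 annotation that the files use, Rpl3 lies on the minus strand of chromosome 7 and Rpl3l on the plus strand of chromosome 10. Transcript Rpl3-201 spanned bases 121297355 to 121302741 and Rpl3-202 spanned 121297414 to 121302026, and both are protein coding. Rpl3-205, Rpl3-207 and Rpl3-208 are annotated as retained introns, and Rpl3-206 as a target of nonsense-mediated decay. Rpl3l had 1 transcript, the protein-coding Rpl3l-201, which spanned bases 14094754 to 14105309.

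The bases just before the start site of each gene are shown because the paralogues, which encode versions of the same protein, differed in level and in response, and because transcription factors that bind muscle promoters were measured in the same libraries. They are the 250 bases upstream of the start site as RefSeq places it in the GRCr8 build, which is not the build of the files, at chr7:113507991-113508240 on the minus strand for Rpl3 and at chr10:14258196-14258445 on the plus strand for Rpl3l. Capitals mark matches on either strand to CANNTG (the E-box of MyoD-family factors and Myc), to CATTCC (the M-CAT element) or to TATAAA (the TATA box).
Rpl3: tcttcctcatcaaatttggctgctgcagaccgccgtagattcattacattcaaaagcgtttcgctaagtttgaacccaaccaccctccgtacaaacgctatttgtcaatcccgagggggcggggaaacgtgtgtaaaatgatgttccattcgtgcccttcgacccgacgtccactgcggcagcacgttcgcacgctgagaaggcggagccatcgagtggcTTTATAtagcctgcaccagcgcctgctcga
Rpl3l: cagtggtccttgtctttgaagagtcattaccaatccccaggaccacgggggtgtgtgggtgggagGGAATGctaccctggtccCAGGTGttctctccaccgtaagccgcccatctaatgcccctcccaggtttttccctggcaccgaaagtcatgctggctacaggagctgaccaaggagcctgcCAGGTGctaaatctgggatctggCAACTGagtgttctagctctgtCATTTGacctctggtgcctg

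The Rpl3l window held 4 E-box matches, at 167, 65, 42 and 20 bases before the start counted from the 5′ end of each match. It also held 1 M-CAT match, on the strand opposite to the printed one, at 185 bases. The Rpl3 window held no E-box or M-CAT match. Its TATA box match lay on the strand opposite to the printed one, and so opposite to the gene, 30 bases before the start. Of 33469 promoter windows of the same length, 65.5% held an E-box match, 12.1% an M-CAT match and 12.9% a TATA box match. CACGTG, the E-box form that Myc and Max prefer and a subset of CANNTG, was in neither window and in 5.59% of all windows. The MEF2 motif was also in neither window and in 0.523% of all. A match is a description of letters and no evidence of binding.

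In resting muscle Rpl3l was far the more abundant of the pair. Levels are TPM-type values, rescaled here by a median-of-ratios factor per muscle. They are taken to be scaled for transcript length, which the study's methods do not describe, and comparisons between genes rest on that reading. Summed over its 6 transcripts, Rpl3 had a level of 28.5 ± 2.93 (SD, n = 12 contralateral muscles), with a lowest value of 24.7, a median of 28.8 and a highest of 33.9. Rpl3l had a level of 293 ± 34.5 in the same muscles, with a lowest value of 256, a median of 288 and a highest of 371. The lowest Rpl3l value was thus well above the highest Rpl3 value, and Rpl3 made up 8.94% ± 1.13 of the summed pair (SD, n = 12).

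Set among the 69 ribosomal protein genes that were tested, with Rpl3l added, Rpl3l ranked 7 by control level and Rpl3 ranked 59. The genes above Rpl3l were Rplp1, Rps4x, Rplp0, Rpl9, Rps27a and Rpl10. The 42 other large-subunit genes had a median control level of 112, between 0.136 and 505. Rpl3l thus stood among the most abundant ribosomal protein RNAs of this muscle, while Rpl3 lay below most of its partners in the subunit. Some ribosomal protein genes were not analysed here, so these ranks hold for the genes tested. Rpl13, Rpl7a and Rpl35a had control levels of only 0.136, 1.49 and 3.11. How reads that match several genes were divided was not tested, so the ranks may not follow RNA abundance.

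The contralateral muscles were first compared with each other. At 2, 10, 20 and 30 days the Rpl3 level was 27.7 ± 2.71, 27.6 ± 2.20, 28.2 ± 2.81 and 30.6 ± 4.24 (SD, n = 3 each), and the limma F test over the 4 groups gave an adjusted p of 0.880. Rpl3l was at 343 ± 24.4, 282 ± 14.5, 261 ± 4.95 and 286 ± 17.2 in the same muscles, highest at 2 days, where all 3 values (328, 328 and 371) lay above the other 9. The F test for Rpl3l gave an unadjusted p of 0.0133 and an adjusted p of 0.385 over the 11234 genes tested, so a difference between the control groups was not called. Of all genes, 0.0623% were called in that test. This spread matters for Rpl3l, since a trained muscle at 2 days looks lower against its own partner than against the pooled controls.

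Rpl3 was higher in every trained muscle than in its own contralateral partner, and most so after 2 days. At 2 days the trained muscles had Rpl3 levels of 55.1, 130 and 104 in replicates 1, 2 and 3, against 28.2, 30.0 and 24.7 in their partners. All 3 trained muscles were above every control, which was so for 8.55% of the 11234 genes tested. Replicate 1 rose much less than the others. The fold over the own partner was 1.95, 4.32 and 4.19, a mean of 3.49 ± 1.33 (SD, n = 3).

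By 10 days the Rpl3 level of the trained muscles had come down to 59.0, 48.6 and 41.1, against 29.4, 28.1 and 25.1 in the partners. At 20 days it was 47.2, 35.8 and 41.8, against 24.98, 29.7 and 30.0. After 30 days it was 39.7, 37.8 and 48.8, against 32.2, 25.8 and 33.9. The fold over the own partner was 1.79 ± 0.193 at 10 days, 1.496 ± 0.353 at 20 days and 1.38 ± 0.128 at 30 days (SD, n = 3 each). The lowest of the 12 trained muscles, at 35.8, was above the highest of the 12 controls, at 33.9. Groups that did not overlap in this way were found for 2.93% of the 11234 genes, and a value above the own partner in 12 of 12 rats for 8.43%.

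**Figure D1:**
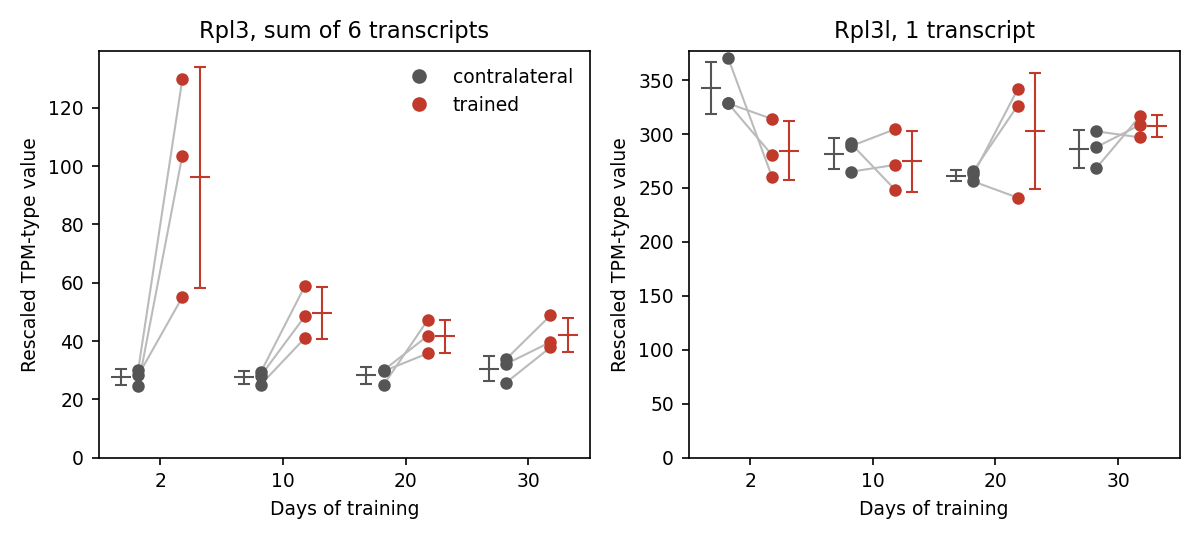
Level of Rpl3 (left, the sum of 6 transcripts) and Rpl3l (right) in each muscle, as rescaled TPM-type values on linear axes that start at 0, by days of training. Grey points are contralateral and red points trained muscles, a line joins the muscles of 1 rat, and bars are the mean ± SD of 3 muscles. Trained Rpl3 values lie between 35.8 and 130, all above the controls, while the Rpl3l values of trained and contralateral muscles overlap.

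The test was limma's moderated test of log2(value + 1), with Benjamini-Hochberg adjustment over all transcripts tested and a threshold of 0.05. On that scale fold changes of low transcripts are understated. Rpl3-201, the most abundant Rpl3 transcript, rose by a log2 fold change of 2.05 at 2 days (SE 0.23, limma adjusted p = 5.51e-07). It was also above the controls at 10 days (0.84, adjusted p = 0.00833), at 20 days (0.77, adjusted p = 0.0200) and at 30 days (0.80, adjusted p = 0.0170), with the same SE in this limma fit. Of the 13452 transcripts tested, 12.6%, 12.7%, 9.31% and 8.66% were called higher at 2, 10, 20 and 30 days and 10.3%, 10.1%, 7.27% and 7.37% lower. Training was thus followed by many changes, and a call of Rpl3 alone is not unusual against that background.

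The later calls rest on the design. Where each trained muscle was set against its own partner, with the rat as a block, Rpl3-201 kept its call at 2 days (2.11, adjusted p = 0.00138) and missed it at 10 days (0.74, adjusted p = 0.159), 20 days (0.94, adjusted p = 0.0850) and 30 days (0.67, adjusted p = 0.243) in limma. That fit called 8.65%, 8.82%, 6.87% and 4.72% of transcripts higher at the 4 times. Rpl3-201 was above its partner in 11 of 12 rats, and in replicate 2 at 20 days it was at 0.934 times the partner. Left without replicate 1 at 10 days the limma adjusted p was 0.103, and at 20 and 30 days leaving out replicates 1 or 3 also ended the call. At 30 days the values as deposited gave 0.58 (limma adjusted p = 0.0703).

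The transcripts of each gene were also summed. The Rpl3 sum was higher by a log2 fold change of 1.64 at 2 days (limma adjusted p = 5.68e-08), 0.77 at 10 days (adjusted p = 8.29e-04), 0.53 at 20 days (adjusted p = 0.0214) and 0.54 at 30 days (adjusted p = 0.0183). In that fit 15.4%, 15.6%, 11.7% and 11.1% of genes were called higher. With the rat as a block the sum kept its calls at 2 days (1.68, limma adjusted p = 5.94e-05) and 10 days (0.81, adjusted p = 0.00903). It missed them at 20 days (0.54, limma adjusted p = 0.0695) and 30 days (0.45, adjusted p = 0.154). Of all gene sums 11.7%, 12.1%, 9.88% and 7.15% were called higher with the block. Time-matched controls also lost the sum at 20 and 30 days (limma adjusted p = 0.101 and 0.213). The values as deposited left 0.33 at 30 days (limma adjusted p = 0.146).

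Between the trained groups, Rpl3-201 was lower at 10, 20 and 30 days than at 2 days, by log2 differences of -1.21 (limma adjusted p = 0.0373), -1.28 (adjusted p = 0.00888) and -1.25 (adjusted p = 0.00562). Of all transcripts, 0.498%, 3.21% and 6.10% were called lower in those comparisons. The 3 later groups could not be ordered, since their differences lay between -0.07 and 0.03 and none passed the threshold. When the changes within rats were compared instead, the differences for Rpl3-201 were -1.37, -1.17 and -1.44 and none passed (limma adjusted p = 0.483, 0.252 and 0.152). For the gene sum the same comparison gave -0.87 at 10 days (limma adjusted p = 0.306), -1.14 at 20 days (adjusted p = 0.0525) and -1.23 at 30 days (adjusted p = 0.0315), where 0.0178%, 0.855% and 1.40% of genes were called lower.

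The protein-coding transcripts of Rpl3 did not move alike. At 2 days Rpl3-201 was at 40.8, 79.9 and 66.3 in trained replicates 1, 2 and 3, against 13.6, 15.4 and 10.9 in their partners, with no overlap. Rpl3-202 was at 7.75, 40.6 and 28.1, against 10.8, 9.91 and 9.16, so that it was lower than its partner in replicate 1 and far higher in the others. Its log2 fold change of 1.05 at 2 days (limma adjusted p = 0.0392) was lost with the rat as a block (1.01, adjusted p = 0.210). It was also lost without replicate 2 (0.59, limma adjusted p = 0.412) or without replicate 3 (0.85, adjusted p = 0.202). At 10, 20 and 30 days Rpl3-202 differed from the controls by 0.59, 0.26 and 0.24, none of which passed. In replicate 2 at each of these times Rpl3-202 nevertheless had the larger fold over the own partner, with 4.72 against 1.09 for Rpl3-201 at 10 days, 1.94 against 0.934 at 20 days and 1.81 against 1.24 at 30 days. In the other 9 rats of the series the fold was larger for Rpl3-201.

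As a share of these coding transcripts together, Rpl3-202 made up 41.3% ± 9.32 in the 12 controls and 26.5% ± 9.33 in the 3 trained muscles at 2 days. Over all 12 trained muscles its share ran from 15.9% to 57.9%, against 24.1% to 56.2% in the controls, so the ranges overlapped. The transcripts overlap on the same strand, and how the authors' quantification divided shared reads between them was not tested. If the values are scaled for transcript length, the sum may also depend on that division, which was not tested.

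**Figure D2:**
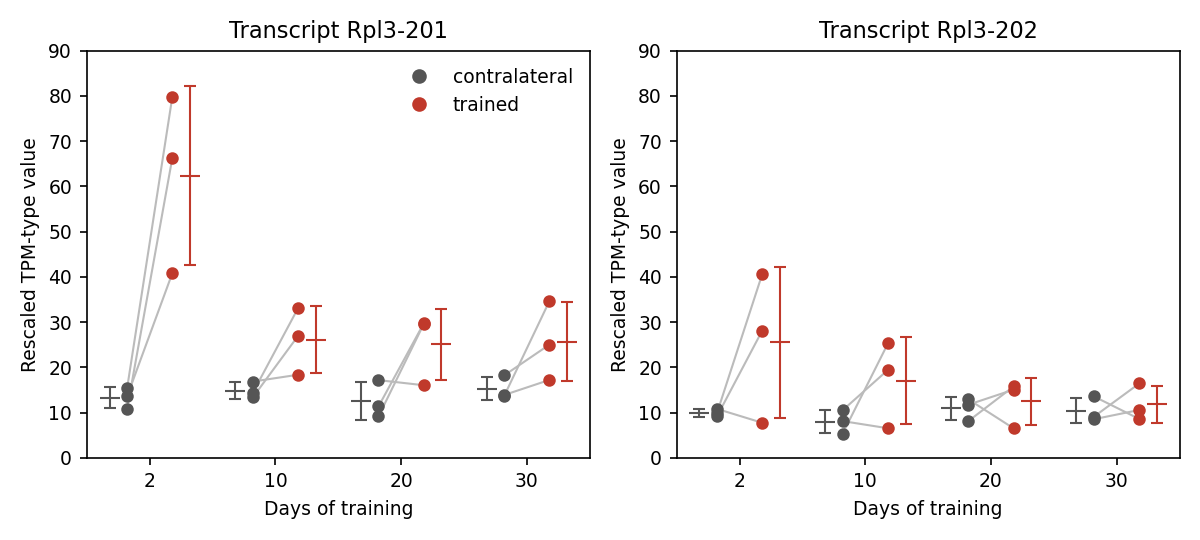
Level of the protein-coding Rpl3 transcripts, Rpl3-201 (left) and Rpl3-202 (right), in each muscle as rescaled TPM-type values on a shared linear axis that starts at 0. Grey points are contralateral and red points trained muscles, a line joins the muscles of 1 rat, and bars are the mean ± SD of 3 muscles. At 2 days the trained values of Rpl3-201 reach 79.9 with no overlap, while Rpl3-202 has 1 trained muscle below its partner.

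The non-coding transcripts of Rpl3 were low. Rpl3-207, a retained intron, had a control level of 1.89 and rose at 2 days by a log2 fold change of 0.96 (limma adjusted p = 9.29e-04) and at 10 days by 0.55 (adjusted p = 0.0450), and the 10-day call was lost with time-matched controls (0.60, adjusted p = 0.150) but held with the block (adjusted p = 0.0381). Its differences at 20 and 30 days, -0.07 and 0.36, did not pass. Rpl3-206, the decay target, had a control level of 2.38 and passed at no time point, with log2 fold changes of 0.17, -0.20, -0.31 and -0.53. Rpl3-208, at 0.295 in the controls, passed at no time point either. Rpl3-205, at 0.125, reached a value of 1 in 2 muscles, fewer than the 3 required, and was not tested.

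Rpl3l did not follow Rpl3. At 2 days the trained muscles had Rpl3l levels of 314, 260 and 280 in replicates 1, 2 and 3, against 328, 371 and 328 in their partners, and at 10 days 249, 304 and 271 against 291, 289 and 265. At 20 days the trained values were 326, 341 and 241, against 266, 263 and 256, and at 30 days 297, 317 and 309, against 303, 268 and 288. The trained and control ranges overlapped over the whole series, and trained muscles were above their partners in 6 of 12 rats. All 3 of the 2-day rats were lower on the trained side, and at each later time 2 of 3 were higher.

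Against the pooled controls the log2 fold change of Rpl3l was -0.04 at 2 days (95% interval -0.27 to 0.19, limma adjusted p = 0.836), -0.09 at 10 days (-0.32 to 0.14, adjusted p = 0.599), 0.04 at 20 days (-0.19 to 0.27, adjusted p = 0.845) and 0.08 at 30 days (-0.15 to 0.31, adjusted p = 0.679). With the rat as a block the 2-day value was -0.27 (95% interval -0.54 to 0.01, limma adjusted p = 0.157). No comparison between trained groups passed for Rpl3l. The values as deposited turned the sign at 2, 10 and 30 days, to 0.08, 0.03 and -0.15, and none of these passed. These intervals bound the change that the data allow and do not show that Rpl3l stayed the same.

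The ratio of Rpl3l to Rpl3 fell with training, most at 2 days. In the 12 controls it was 10.4 ± 1.49 (SD), between 8.50 and 13.3. At 2 days it was 5.70, 2.00 and 2.71 in trained replicates 1, 2 and 3, against 11.6, 12.3 and 13.3 in their partners. By 10 days it was 4.21, 6.27 and 6.60 against 9.91, 10.3 and 10.6, and at both of these times every trained muscle lay below every control.

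Later the ratio moved part of the way back. At 20 days it was 6.91, 9.54 and 5.77, against 10.6, 8.85 and 8.54, with trained replicate 2 above its own partner. At 30 days it was 7.48, 8.37 and 6.32, against 9.40, 10.4 and 8.50, each below its partner. In all the ratio was below that of the partner in 11 of 12 rats. The mean log2 change within rats was -1.98 ± 0.842, -0.87 ± 0.313, -0.36 ± 0.406 and -0.36 ± 0.0617 after 2, 10, 20 and 30 days (SD, n = 3 each). The 20-day mean rests on few rats, and it was -0.59 without replicate 2, -0.23 without replicate 1 and -0.26 without replicate 3. The partners at 2 days had the highest ratios of all controls, so part of the return in these changes lies in the partners. Mean log2 ratios were 3.63, 3.36, 3.22 and 3.23 in the partners in order of time, and 1.65, 2.48, 2.86 and 2.88 in the trained muscles.

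The ratio does not depend on the scaling of a library, since both values of a muscle are divided by the same factor. It is given as a description, and with 3 rats per time point no test of it was made. After 2, 10, 20 and 30 days Rpl3 accounted for 25.1% ± 9.34, 15.4% ± 3.32, 12.3% ± 2.66 and 12.04% ± 1.51 of the pair in trained muscle (SD, n = 3 each), against 8.94% in the pooled controls. Even in the muscle with the lowest ratio, trained replicate 2 at 2 days, Rpl3l was 2.00 times the level of Rpl3. The paralogue remained the more abundant RNA in all 24 muscles.

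**Figure D3:**
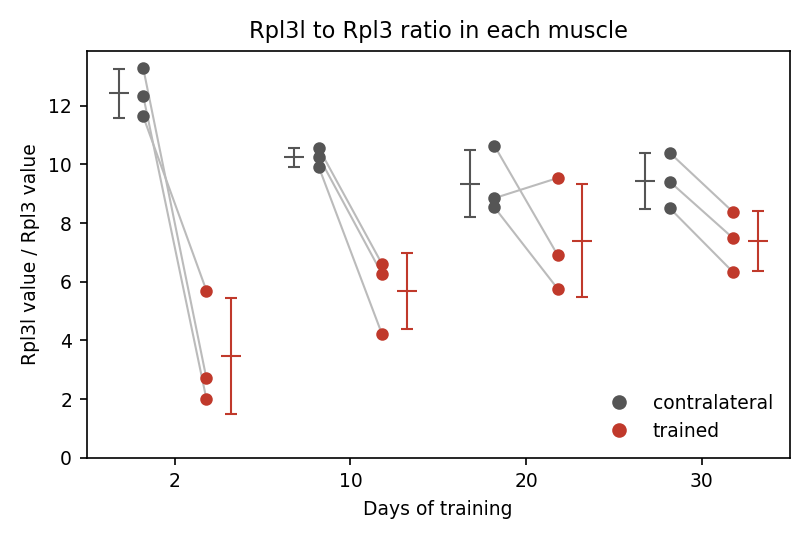
Ratio of the Rpl3l to the Rpl3 level in each muscle by days of training, on a linear axis that starts at 0. Grey points are contralateral and red points trained muscles, a line joins the muscles of 1 rat, and bars are the mean ± SD of 3 muscles. The ratio falls in all rats at 2, 10 and 30 days and rises in 1 rat at 20 days.

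Rpl3 and Rpl3l were also added together. Their summed level in trained muscle was 381 ± 10.7, 324 ± 24.9, 344 ± 53.3 and 349 ± 11.3 in order of time (SD, n = 3 each), against 321 ± 35.0 in the 12 controls (SD). The trained muscle held 1.03, 1.05, 1.19 and 1.11 times the sum of its partner on average at those times, and was above it in 9 of 12 rats. Across all 24 muscles the log2 levels of the pair had a Pearson r of -0.17, with 0.15 over the 12 controls and -0.40 over the 12 trained muscles. The trained muscles share time points, so these coefficients are descriptions only.

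The other ribosomal proteins give the setting in which Rpl3 stood apart. All 69 measured genes of the large and small subunits were tested, with 1 transcript per gene. At 2 days 22 of them, Rpl3 included, were called higher and 0 lower, or 31.9% against 12.6% of all transcripts, with a median log2 fold change of 0.34 against -0.02 over all transcripts. The 68 genes other than Rpl3 ran from -0.27 to 0.59, and next to Rpl3 were Rpl12 (0.59) and Rpl18 (0.59), both large-subunit proteins. Of the genes that passed, Rpl10 (0.33) and Rps13 (0.36) had the smallest changes.

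That broad 2-day rise depends on the controls and on the scaling. With the rat as a block 1 of the 69 genes was called, which was Rpl3, and the median of the other 68 was 0.17. Time-matched controls left 2 genes, omission of trained replicate 2 left 2, and omission of replicate 3 left 5. The values as deposited gave 46. Rpl3 thus stood well above the other genes in each of these fits at 2 days, whereas the calls of the others did not hold in several of them.

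At 10 and 20 days 1 of the 69 genes was called higher, Rpl3 itself, or 1.45% against 12.7% and 9.31% of all transcripts. At both times 1 was called lower, Rpl10, against 10.1% and 7.27% of all transcripts. Median log2 fold changes were -0.02 and -0.06. Rpl10, which joins the large subunit late in its assembly, had a level of 307 ± 31.0 in the 12 controls (SD) and means of 385, 220, 219 and 236 in the trained groups in order of time. It was called lower at 10 days by -0.47 (limma adjusted p = 0.00132), at 20 days by -0.49 (adjusted p = 0.00126) and at 30 days by -0.37 (adjusted p = 0.0135). Blocked by rat, only the 10-day call held (limma adjusted p = 0.0224).

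At 30 days 4.35% of the 69 genes were called higher, against 8.66% of all transcripts, and 1 lower, against 7.37%. Those higher were Rpl3, Rps25 and Rpl39, with log2 fold changes of 0.80, 0.79 and 0.61 (limma adjusted p = 0.0170, 0.0214 and 0.0319). Rpl10 was called lower. With the block none of these calls held (adjusted p = 0.243, 0.0785, 0.0614 and 0.176 for Rpl3, Rps25, Rpl39 and Rpl10, in limma), and Rpl10a, named here after its values were seen, was called higher instead (0.46, limma adjusted p = 0.0495). The median of the 69 genes was 0.07 and turned to -0.14 on the values as deposited, on which 0 genes were called higher and 7 lower. By size of change Rpl3-201 ranked 1 of 69 at every time point against pooled controls, also on the values as deposited. Blocked by rat it ranked 2 at 30 days, behind Rps25, and as a gene sum it ranked 3 at 30 days, behind Rps25 and Rpl39.

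**Figure D4:**
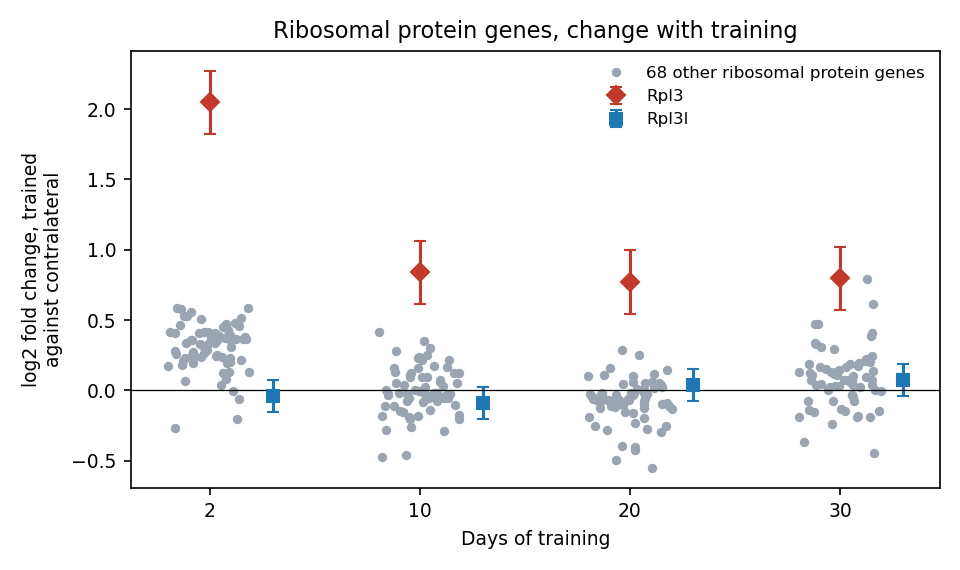
log2 fold change of trained against the pooled contralateral muscles for the 69 tested ribosomal protein genes and Rpl3l, by days of training, on a linear axis. Grey points are the 68 other genes, red diamonds Rpl3-201 and blue squares Rpl3l, with bars of 1 standard error, and points are spread sideways for legibility. Rpl3 lies at 2.05 at 2 days, where the next gene lies at 0.59, and Rpl3l lies close to 0 throughout.

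Paralogue genes of the ribosome, Rpl3l included, were examined in the same way. Of the 8 that were measured, 7 passed the filter on low values. At 2 days 3 of the 7 were called higher, against 12.6% of all transcripts, namely Rps4y2 (0.85, limma adjusted p = 0.0289), Rpl22l1 (0.57, adjusted p = 0.0316) and Rpl36al (0.39, adjusted p = 0.0486), and none of the 3 passed with the rat as a block. At 10 days Rpl7l1, a homologue of Rpl7, was called lower by -0.38 (limma adjusted p = 0.0263), and this too was lost with the block. None passed at 20 or 30 days. Rpl10l, the retrogene of Rpl10 known from testis, had a control level of 0.647 and Rps27l one of 29.9, and neither passed at any time.

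Among proteins that act on Rpl3 before or during assembly, Grwd1, a chaperone that binds newly made Rpl3, had a control level of 3.88 and log2 fold changes of 0.28, 0.02, -0.10 and -0.20 that did not pass. Mettl18, which methylates a histidine of Rpl3, had a control level of 2.30 and changes of -0.13, -0.14, -0.20 and -0.38 that did not pass either. Of the 23 genes of the early large-subunit assembly list, both of these included, 3 were called higher at 2 days, against 12.6% of all transcripts. They were Ppan (0.51, limma adjusted p = 0.0293), Bop1 (0.40, adjusted p = 0.0424) and the nucleolar protein Ncl (0.32, adjusted p = 0.0158), and the last of these alone held with the rat as a block (0.46, adjusted p = 0.0235).

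Later the assembly genes called lower were 3 at 10 days, against 10.1% of all transcripts. At 20 and at 30 days 1 was called lower, against 7.27% and 7.37%. These lower calls lay near the background, as did the higher calls at 2 days. At 10, 20 and 30 days 0 of the 23 genes were called higher, against 12.7%, 9.31% and 8.66% of all transcripts. Wdr12 (-0.53), Nvl (-0.52) and Ddx18 (-0.36) were called lower at 10 days (limma adjusted p = 6.83e-04, 1.71e-04 and 0.0152), Ftsj3 (-0.34) at 20 days (adjusted p = 0.0388) and Rrs1 (-0.71) at 30 days (adjusted p = 7.85e-04). Of these, Ddx18 and Ftsj3 no longer passed with the block (limma adjusted p = 0.0622 and 0.139). The list medians were 0.18, -0.10, -0.05 and -0.12 at 2, 10, 20 and 30 days. At each time most of the 23 genes did not pass. The values as deposited gave 4 higher and 0 lower at 2 days, and 0 higher and 9 lower at 30 days.

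The elongation factors offer another paralogue pair of muscle. Eef1a2 is the form of mature muscle and nerve and Eef1a1 the ubiquitous form of the factor that brings aminoacyl-tRNA to the ribosome. Eef1a1 had a control level of 72.5 ± 14.4 and trained levels of 111, 136, 124 and 130 at 2, 10, 20 and 30 days, with log2 fold changes of 0.62, 0.91, 0.79 and 0.85 (limma adjusted p = 0.00539, 1.33e-04, 8.95e-04 and 5.31e-04). Blocked by rat, the call was lost at 30 days (0.57, limma adjusted p = 0.0779). Eef1a2 had a control level of 871 ± 67.5 (SD, n = 12) and changes of -0.28, -0.05, -0.03 and -0.09 that did not pass.

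In both pairs, therefore, the ubiquitous form passed against pooled controls at every time and the muscle form at none, but a test of whether the pairs respond alike was not made. Eef2k, the kinase that inhibits elongation factor Eef2, was lower at all 4 times by -0.58, -0.48, -0.44 and -0.66 (limma adjusted p = 0.00459, 0.0168, 0.0383 and 0.00262), also with the rat as a block. Eef1g was higher at 2 days (0.41, limma adjusted p = 0.0195) and 10 days (0.45, adjusted p = 0.0113), and Eef1b2 at 2 days (0.36, adjusted p = 0.0245), and none of these held with the block. Eef1d, Eef2 and Eif5a passed at no time, with changes between -0.28 and 0.16.

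Of the 11 transcription factors of muscle and growth, Myc, a driver of ribosome production, had a control level of 1.16 ± 0.492 (SD, n = 12). Its mean reached 13.98, 11.4, 7.25 and 4.47 in trained muscle at 2, 10, 20 and 30 days, with log2 fold changes of 2.79, 2.56, 1.95 and 1.35 (limma adjusted p = 8.84e-10, 3.01e-09, 2.93e-07 and 6.29e-05), and every one of these calls held with the rat as a block.

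Of the MyoD family, Myf6 (1.17, limma adjusted p = 0.00184) and Myog (1.40, adjusted p = 0.00591) were higher at 2 days, Myog no longer with the rat as a block (adjusted p = 0.0601), and neither passed later. Myod1 passed at no time, with changes between -0.43 and -0.08. Mef2c was higher at 2 days (0.30, limma adjusted p = 0.0215) and 10 days (0.62, adjusted p = 3.33e-05). Six4 was lower at 2 days (-0.58, limma adjusted p = 0.0137) and 10 days (-0.57, adjusted p = 0.0145), Max was lower at 10 days (-0.34, adjusted p = 0.0233) and 30 days (-0.35, adjusted p = 0.0268), and Mef2a, Mef2d and Srf passed at no time. With the block Mef2c at 2 days (limma adjusted p = 0.0533), Six4 at both times (adjusted p = 0.224 and 0.0880) and Max at 30 days (adjusted p = 0.164) were lost.

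The makeup of the tissue differed between trained and control muscles, and in whole muscle more cells of a type and more RNA per cell cannot be told apart. Myofibre genes dominated every library, with a summed level of 12 genes between 87706 and 105901 in the controls and between 85778 and 86747.5 in trained muscle at 2 days, where 1 of the 12 was called higher and 4 lower. Macrophage markers, 11 genes, summed to between 18.6 and 43.4 in the controls and to 66.4, 120.6 and 169.8 at 2 days, 56.0 to 119.8 at 10 days, 75.3 to 89.9 at 20 days and 79.2 to 103 at 30 days. Fibroblast markers, 6 genes, summed to between 89.7 and 276 in the controls and to between 321 and 519, 541 and 1021, 602 and 654, and 387 and 450 in the trained groups in order of time.

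Satellite cell markers, 6 genes, summed to between 18.3 and 42.2 in the controls and to between 52.4 and 91.2 at 2 days, 49.7 and 68.9 at 10 days, 45.9 and 55.9 at 20 days and 32.8 and 41.8 at 30 days. Endothelial markers, 6 genes, summed to between 36.3 and 48.9 in the controls, and their trained sums lay below every control at 2 days (34.1 to 35.9), overlapped at 10 days (41.5 to 75.8) and lay above every control later (58.8 to 69.7 at 20 days, 50.7 to 67.4 at 30 days). Of the lists with low members, 5 macrophage and 4 satellite cell genes had a mean under 1 in the controls and 3 and 2 at 2 days. The satellite cell sum rested mainly on Sdc4 (10.0 in the controls, 24.6 at 2 days) and Itga7 (6.42 and 22.5). Myf5 (0.473 and 1.12) and Vcam1 (0.549 and 1.46) added little to it. Whether the sum follows satellite cells was not tested. At 2 days, where 12.6% of all transcripts were called higher, so were 7 of 9 tested macrophage and 3 of 6 fibroblast genes. Of the satellite cell and endothelial genes, 3 of 4 and 0 of 6 were called then. With the rat as a block these counts were 9, 6, 2 and 0, against 8.65% of all transcripts. All tested macrophage genes (9 of 9) were called higher at 20 and 30 days, as were all 6 fibroblast genes, against 9.31% and 8.66% of all transcripts. With the block Cd68 at 20 days (limma adjusted p = 0.0537) and Pdgfra at 20 and 30 days (adjusted p = 0.0836 and 0.231) were lost. Macrophage and fibroblast marker sums were thus higher in every trained muscle than in every control, as was Rpl3. Satellite cell sums were above every control at 2, 10 and 20 days, and endothelial sums at 20 and 30 days only. The part of such cells in the Rpl3 values was not tested.

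Finally, the genes most like either member across the 24 muscles were found by Pearson's r on log2(value + 1) among 3661 genes with a mean level of at least 10. For Rpl3 they were Txnl1 (0.90), Anxa2 (0.87), Tubb6 (0.86), Dysf (0.86) and Ankrd1 (0.86). The mean level for the filter was taken over all 24 muscles, trained ones included. Tubb6, with a control level of 4.79, passed it only through the trained muscles, in which Rpl3 was also high. Dysf and Anxa2 act in the repair of the fibre membrane, Tubb6 is a tubulin and Ankrd1 is a load-responsive protein of the sarcomere. The same r values ran from 0.01 to 0.53 within the 12 controls and from 0.71 to 0.93 within the 12 trained muscles. Ankrd1 had log2 fold changes of 6.92, 4.63, 2.25 and 2.47 over time.

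Genes most opposed to Rpl3 were P2rx6 (-0.88), Klhl21 (-0.85), Mfn2 (-0.84), Phkg1 (-0.84) and Pank4 (-0.84). Within the 12 controls these r values ran from -0.46 for P2rx6 to 0.44 for Pank4, with -0.07 for Mfn2. Within the 12 trained muscles they ran from -0.80 to -0.66, and on the values as deposited from -0.72 to -0.61. Phkg1 encodes the catalytic subunit of phosphorylase kinase and Mfn2 a protein of mitochondrial fusion. For Rpl3l the closest were Ndufa13 (0.89), Ndufa11 (0.82), Ptges2 (0.82), AC098622.1 (0.78) and Cox6a2 (0.77), where Ndufa13 and Ndufa11 encode subunits of respiratory complex I and Cox6a2 a muscle subunit of cytochrome c oxidase. Their r values were alike in the controls (0.73 to 0.89) and in the trained muscles (0.76 to 0.91), and between 0.46 and 0.79 on the values as deposited. The most opposed were Tm9sf3 (-0.67), Fyttd1 (-0.64), Actr2 (-0.62), Tial1 (-0.60) and Strn3 (-0.59), but on the values as deposited these ran from -0.13 to 0.19, so that the opposition rests on the scaling. All these coefficients are taken over muscles that share libraries and groups, and they are descriptions.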

How the data were processed

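Poly-A RNA of 24 rat muscles was sequenced, a trained and a contralateral tibialis anterior from each of 12 rats. Reads were trimmed by the authors in Partek Flow, mapped with STAR to the Rnor_6.0 assembly, and then assigned to transcripts of the Ensembl annotation. They deposited TPM-type transcript values that add up to about the same total in every muscle (634430.6 to 634431.0). The study's methods name a median-of-ratios normalization and no scaling for transcript length. These methods give only a minimum number of reads per sample, so the depth behind each value is unknown and no count model was run. A second deposited table, of signal per gene as the authors scaled it, served as an alternative for the ratio. A further table holds the authors' own comparisons (p-values, FDR, ratios, means) and was not used.

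Here each muscle was divided by a median-of-ratios factor (0.778 to 1.14, from 16230 transcripts above 0 in all muscles). Transcripts that reached 1 in 3 or more muscles (13452) were fitted on log2(value + 1) with limma 3.58.1 in R 4.3.3, in 5 groups (12 controls, 3 per trained group), with Benjamini-Hochberg adjustment within a comparison, a threshold of 0.05 and two-sided tests. Gene sums that passed the same filter (11234) were fitted likewise. The members, gene lists, scaling and filter were chosen with earlier results of these data known. Named were all member transcripts, measured genes of the paralogue, elongation and transcription factor lists, Grwd1 and Mettl18, the 2 highest and 2 lowest ribosomal protein genes past the threshold at each time, and the 5 genes with the highest and the 5 with the lowest r to each member. A listed gene is not reported here. Assembly genes that passed were named after their values were seen. List genes are represented by their transcript with the highest mean.

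Muscles were paired by rat from the labels. Deviations from group means had a median r of 0.133 between the muscles of a rat (0.0174 to 0.270, over 0.1 in 7 of 12 rats) and of -0.008 between rats. None of 276 library pairs were identical. The fit was checked on simulated data. Promoters of both genes were matched by symbol in RefSeq (GRCr8). Python 3.11.15, numpy 2.4.6, pandas 2.3.3 and matplotlib 3.10.9 were used.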

Additional observations from a re-analysis of the deposited data

Results flagged for a closer look

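The change of Rpl3 within rats was called different between 2 and 30 days, in a block fit of the gene sum added after seeing the data. For the gene sum, the trained minus contralateral difference at 30 days was lower than at 2 days by a log2 value of -1.23 (95% interval -1.81 to -0.65, limma adjusted p = 0.0315), with 2.71% of genes called in either direction in that comparison. At 2 days the 3 rats had within-rat log2 changes of 0.96, 2.11 and 2.07, and at 30 days 0.30, 0.55 and 0.53. The test on Rpl3-201 alone gave -1.44 and did not pass (limma adjusted p = 0.152).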

How the results depend on the processing

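The files hold no counts, so the depth behind each value is unknown, low transcripts of Rpl3 are the least certain, and groups of 3 muscles limit all tests. The values as deposited shifted the median of all transcripts by log2 values of 0.08, 0.09, -0.0012 and -0.17 for the 4 times in order. Higher transcripts made up 54.9%, 55.7%, 56.2% and 54.0% of calls after rescaling and 74.9%, 76.3%, 61.7% and 20.5% as deposited. The rise of Rpl3-201 at 2 days kept its direction and its call under every alternative run, and no alternative called Rpl3l changed at any time. Elsewhere the cause of a lost call was not tested, apart from the fewer muscles that a left-out muscle leaves.

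With the rat as a replicate block, the Rpl3-201 calls were lost at 10, 20 and 30 days (0.74, 0.94 and 0.67), and so were those between trained groups (-1.37, -1.17 and -1.44 against 2 days). The differences of 20 minus 10 and 30 minus 20 days turned to 0.20 and -0.27. For Rpl3l the block turned 10 minus 2 days to 0.23 and 30 minus 20 days to -0.091, alike for the transcript and the sum. The block on the sum, added after seeing the data, lost Rpl3 at 20 days (0.54) and 30 days (0.45) and between trained groups at 10 minus 2 days (-0.87) and 20 minus 2 days (-1.14), and it turned 30 minus 20 days to -0.092. Time-matched controls, which give the same estimates as the block, lost Rpl3-201 at 10 days (0.74) and 30 days (0.67) and its sum at 20 days (0.54) and 30 days (0.45). They also lost or turned the same differences between trained groups as the block, for the transcripts and the sums (added after seeing the data). A pseudocount of 0.1 lost 10 minus 2 days (-1.24).

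On the values as deposited Rpl3-201 lost its call at 30 days (0.58), as did the sum (0.33, added after seeing the data), and the difference of 30 minus 20 days turned to -0.19. Rpl3l, as transcript and as sum, turned sign without a call at 2 days (0.078), 10 days (0.032) and 30 days (-0.15). Between trained groups it turned at 20 minus 2 days (-0.041), 30 minus 2 days (-0.22), 30 minus 10 days (-0.18) and 30 minus 20 days (-0.18).

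Of the 69 ribosomal protein genes, the values as deposited called 46 higher at 2 days, 5 higher at 10 days, 3 lower at 20 days, and 0 higher and 7 lower at 30 days. The block called 1 higher at 2 days, 0 higher at 10 days, 0 higher and 0 lower at 20 days, and 1 higher and 0 lower at 30 days. Time-matched controls called 2 higher at 2 days, 0 higher at 10 days, 0 lower at 20 days, and 0 higher and 0 lower at 30 days. Without the filter 2 were lower at 20 days. Gene sums gave 2 higher at 10 days and 3 lower at 20 days.

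Leaving out 1 trained muscle at a time gave 0.66 to 1.06 for Rpl3-201 at 10 days, 0.63 to 1.05 at 20 days and 0.56 to 1.04 at 30 days. Between trained groups it gave -1.48 to -0.98 for 10 minus 2 days, -1.55 to -0.995 for 20 minus 2 days, -1.52 to -1.004 for 30 minus 2 days, -0.29 to 0.21 for 20 minus 10 days, -0.28 to 0.20 for 30 minus 10 days and -0.26 to 0.27 for 30 minus 20 days. For Rpl3l it gave -0.11 to 0.027 at 2 days, -0.054 to 0.20 at 20 days, -0.13 to 0.021 for 10 minus 2 days, -0.017 to 0.23 for 20 minus 2 days and -0.12 to 0.13 for 30 minus 20 days. The ribosomal protein genes called higher ran from 2 to 26 at 2 days, 0 to 2 at 10 days, 0 to 1 at 20 days and 0 to 2 at 30 days, and those called lower from 1 to 3 at 20 days and 0 to 1 at 30 days. Signs without a call also turned for Rpl3-202 at 30 days (-0.0070 to 0.42), Rpl3-206 at 20 days (-0.59 to 0.047), Rpl3-207 at 20 days (-0.30 to 0.22) and Rpl3-208 at 10 days (-0.14 to 0.27).

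With the transcript of highest mean in place of the gene sum, the ratio changed within rats by -0.80 at 20 days and -0.60 at 30 days on the log2 scale, a larger fall than with sums. The gene-level table moved it by less than 1 SD, and so did the omission of any rat, although at 20 days the mean then ran from -0.59 to -0.23. The F tests of the contralateral groups were called under no alternative. Of 47 calls of other named genes, 24 were lost with the block, 25 with time-matched controls, 11 on the values as deposited and 29 without at least 1 of the trained muscles, and 0 turned sign.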
